A study of Mus musculus with 4 samples.

Results

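The 43 genes described here encode proteins that license replication origins, open and copy DNA at the replication fork, and supply its nucleotides, and their RNA was read in B16F10, an established melanoma line of C57BL/6 mouse origin, with 4 arrays in all. They are Mcm2 to Mcm7, Mcm10, Cdc6, Cdt1, Gmnn, Orc1, Orc2, Orc6, Cdc45, Gins1 to Gins4, Rfc1 to Rfc5, Pcna, Pola1, Pola2, Prim1, Prim2, Pold1 to Pold3, Pole, Pole2, Rpa1 to Rpa3, Fen1, Lig1, Rrm1, Rrm2, Tyms, Tk1 and Uhrf1. The list was set by name, and each gene was read by the brightest probe set annotated to its symbol alone. All 43 were among the 17097 named genes on the array, and all 43 had a mean above 5.05 on the log2 scale, the 95th percentile of 41 odorant receptor genes, used here as a background level. The treated group, plumbagin 1 and plumbagin 2, was 2 samples kept for 24 h in 2 µM plumbagin, which is a naphthoquinone made by plants. The controls, control 1 and control 2, were 2 samples given MilliQ water, the 0 µM condition, titled untreated. All 4 were the same cell line, and the labels name no engineered allele. Whether the samples within a group came from separate cultures is not stated, and the p-values therefore measure a spread between samples that may be technical.

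Origins are licensed in G1, when the origin recognition complex, Cdc6 and Cdt1 load the ring-shaped Mcm2-7 complex on DNA, a step that geminin later blocks. In S phase Cdc45 and the GINS complex join the ring to form the active helicase, primase and DNA polymerase alpha start each new strand, replication factor C loads the PCNA clamp, and polymerases delta and epsilon extend. Many of these genes are transcribed at the G1/S transition under E2F factors, so that their RNA in a culture varies with how many of its cells are cycling, which bulk RNA cannot tell apart from RNA per cell.

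None of the 43 genes passed the test between plumbagin and control, and the arrays of 1 treatment differed from each other more than the treatments did. The median of plumbagin minus control over the 43 genes was -0.13 on the log2 scale, 1.10-fold lower, against -0.01 over all genes and -0.05 over the 8637 genes above background. By limma, a linear model with a moderated variance fitted over all 17097 genes, 0 of the 43 had a Benjamini-Hochberg adjusted p under 0.05, as did 0% of all genes, and the adjusted p was 1 for each. At an unadjusted p under 0.05, 1 of the 43 was lower (Rfc4) and 0 higher, where 0.731% of all genes were lower and 0.257% higher. The direction was shared, with 37 of the 43 lower and 6 higher, where 55.1% of all genes and 65.1% of those above background were lower. In comparison, control 1 exceeded control 2 by a median of 0.44, 1.36-fold, and plumbagin 1 exceeded plumbagin 2 by a median of 0.32, 1.25-fold. The gap between the controls was larger in size than the treatment difference in 38 of the 43 genes, and in 64.9% of all genes. These measures are unlike, since a gap between single arrays varies more than a difference between group means. The median treatment difference was above 0 without control 1 (0.10) and without plumbagin 2 (0.05), against -0.36 without control 2 and -0.31 without plumbagin 1.

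**Figure D1:**
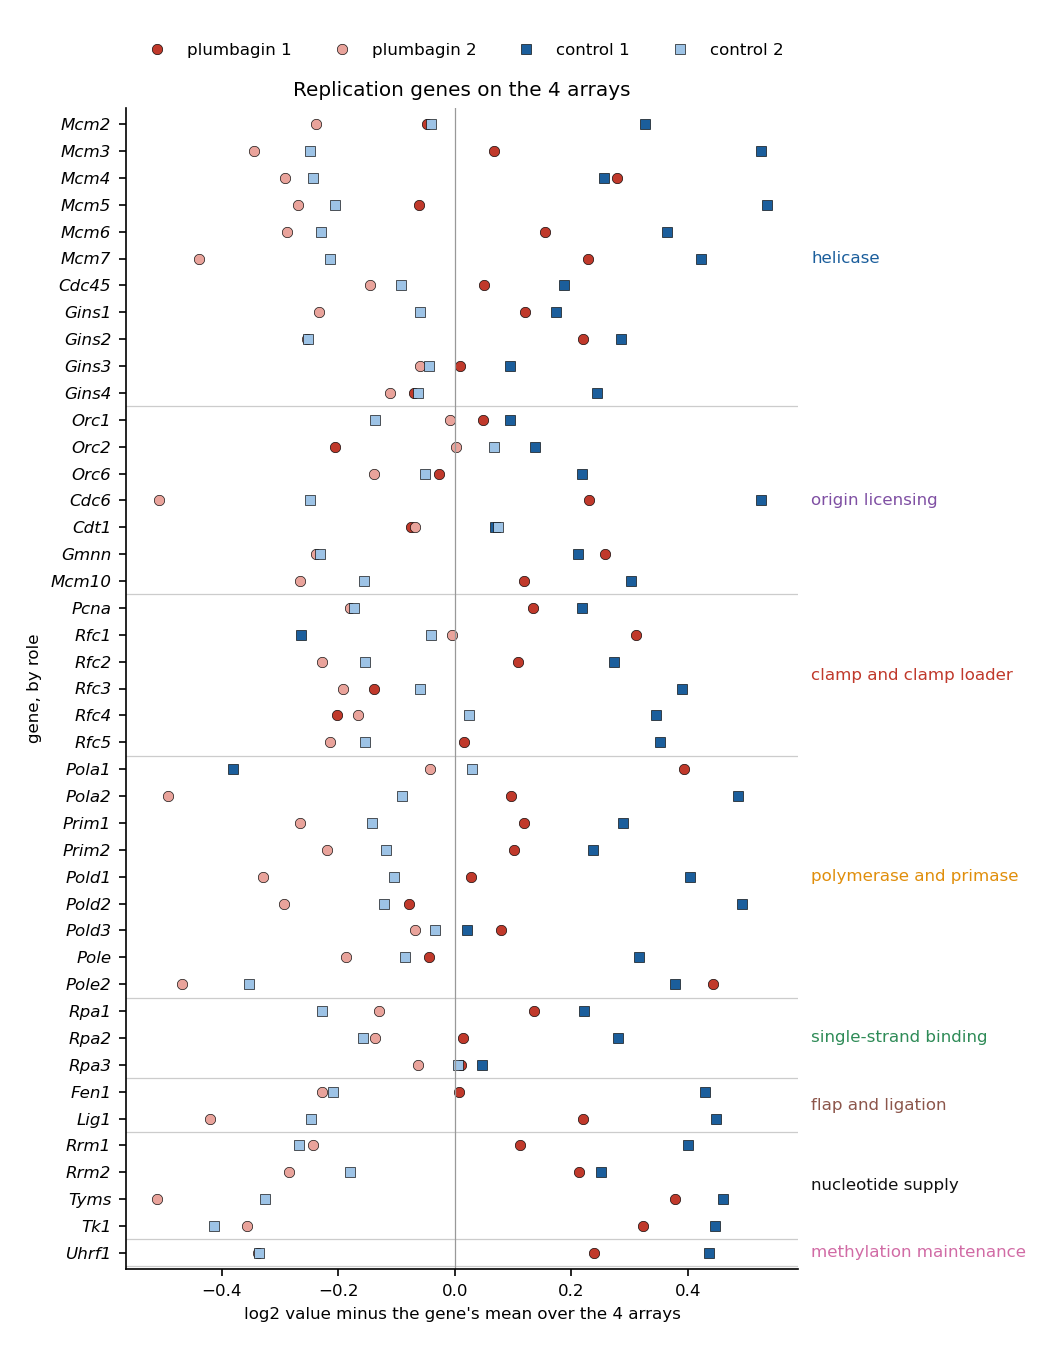
Log2 value of each of the 43 genes on each array minus the gene's mean over the 4 arrays (horizontal axis), with genes in rows grouped by role; circles are plumbagin arrays and squares control arrays. Control 1 is the rightmost point in 36 genes and plumbagin 2 the leftmost in 33, while Rfc1 and Pola1 have control 1 as their lowest array.

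The order of the arrays was alike across the list. The order control 1, plumbagin 1, control 2, plumbagin 2 from high to low was found in 26 of the 43 genes, and in 7.83% of all genes. Both arrays numbered 1 lay above both arrays numbered 2 in 35 of the 43, a pattern of 30.0% of all genes and 28.6% of those above background. Both plumbagin arrays lay below both controls in 6 genes (Mcm2, Gins4, Orc2, Cdt1, Rfc3 and Rfc4), or 14.0% of the list, where 15.2% of all genes and 18.3% of those above background did. Both lay above both controls in 1, Rfc1, where 10.2% of all genes did.

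The 4 arrays had medians of 4.32 to 4.39 over 45141 probe sets and upper quartiles of 6.34 to 6.36, except plumbagin 1 with 6.26. Plumbagin 2 and control 2 were the pair most alike over the 17097 genes (Pearson r = 0.999), and the other 5 pairs had r from 0.993 to 0.995. The part of these differences between arrays in the results below was not tested. All 7 melanocyte markers, among them Tyr, Tyrp1, Dct and Pmel, lay between 10.64 and 12.35 on every array. Of the markers of other cells, 0 of 6 for fibroblasts, 0 of 5 for keratinocytes, 1 of 5 for leukocytes (Cd3e) and 1 of 4 for endothelium (Kdr) had a mean above background.

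Promoter sequences were examined because the genes moved together between arrays and many of them are textbook E2F targets. RefSeq promoter windows (GRCm38.p6, 250 bases before to 50 bases after a start site) were matched by symbol for 35 of the 43 genes, with 42 windows in all. They were searched on both strands for the letters TTTCCCGC, TTTGGCGC, TTTCGCGC and TTTGCCGC, forms of the E2F motif, and matches can overlap each other. A match was found in 15 of the 42 windows (35.7%), against 2.27% of all 32841 windows of the table and 3.19% of those of genes on the array. Windows of other DNA replication genes held one in 13 of 52 (25%). The CHR letters TTTGAA were in 11.9% of the 42 windows and 17.9% of all, and the CCAAT letters in 61.9% and 37.4%. By role, E2F letters were found in 5 of 7 helicase genes with a window, 4 of 7 polymerase and primase genes, 3 of 6 licensing genes, 1 of 5 clamp and clamp loader genes and 0 of 4 nucleotide supply genes. The windows below are shown because Mcm3, Mcm6 and Cdc6 typify the common array order, Rfc3 is the clamp loader gene with matches, and Pola1 and Rfc1 are the genes with control 1 as their lowest array. Other genes in the common order, among them Pcna, Tyms and Fen1, had windows without a match and are not shown. The windows printed are thus no measure of how the letters go with the order. Each is printed 5′ to 3′ on the strand of its gene, and capitals mark the E2F letters on either strand. The windows are chr1:20820263-20820562 (minus strand) for Mcm3, chr1:128359656-128359955 (minus) for Mcm6, chr11:98907901-98908200 (plus) for Cdc6, chr5:151651159-151651458 (minus) for Rfc3, chrX:93632106-93632405 (minus) for Pola1 and chr5:65335590-65335889 (minus) for Rfc1.
Mcm3: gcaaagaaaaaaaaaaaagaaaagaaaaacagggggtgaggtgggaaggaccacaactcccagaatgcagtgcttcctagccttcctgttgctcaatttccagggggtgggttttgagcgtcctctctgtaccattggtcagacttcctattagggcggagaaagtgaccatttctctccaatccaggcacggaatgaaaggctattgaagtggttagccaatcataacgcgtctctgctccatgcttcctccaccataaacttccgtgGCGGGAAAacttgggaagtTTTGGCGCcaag
Mcm6: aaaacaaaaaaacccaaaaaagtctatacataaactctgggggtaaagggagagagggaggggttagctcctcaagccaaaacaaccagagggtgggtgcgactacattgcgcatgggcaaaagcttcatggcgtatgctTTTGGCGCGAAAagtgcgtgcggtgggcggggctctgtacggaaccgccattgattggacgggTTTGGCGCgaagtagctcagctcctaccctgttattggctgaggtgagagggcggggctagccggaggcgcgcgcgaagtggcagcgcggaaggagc
Cdc6: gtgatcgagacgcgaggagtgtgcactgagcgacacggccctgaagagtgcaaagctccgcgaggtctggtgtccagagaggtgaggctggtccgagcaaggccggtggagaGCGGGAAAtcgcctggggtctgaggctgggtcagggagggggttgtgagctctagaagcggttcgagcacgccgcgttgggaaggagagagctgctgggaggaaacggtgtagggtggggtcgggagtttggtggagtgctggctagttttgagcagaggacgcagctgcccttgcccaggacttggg
Rfc3: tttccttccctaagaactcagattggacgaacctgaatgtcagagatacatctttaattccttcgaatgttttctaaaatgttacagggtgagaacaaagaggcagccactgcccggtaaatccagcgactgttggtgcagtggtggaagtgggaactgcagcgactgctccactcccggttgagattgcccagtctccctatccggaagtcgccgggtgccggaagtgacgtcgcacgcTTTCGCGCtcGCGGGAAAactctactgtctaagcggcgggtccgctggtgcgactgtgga
Pola1: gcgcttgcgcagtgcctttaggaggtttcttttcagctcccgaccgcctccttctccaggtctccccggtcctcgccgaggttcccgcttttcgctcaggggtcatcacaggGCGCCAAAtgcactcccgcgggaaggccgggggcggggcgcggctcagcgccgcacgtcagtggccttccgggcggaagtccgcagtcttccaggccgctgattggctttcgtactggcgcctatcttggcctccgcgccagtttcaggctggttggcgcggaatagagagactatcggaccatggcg
Rfc1: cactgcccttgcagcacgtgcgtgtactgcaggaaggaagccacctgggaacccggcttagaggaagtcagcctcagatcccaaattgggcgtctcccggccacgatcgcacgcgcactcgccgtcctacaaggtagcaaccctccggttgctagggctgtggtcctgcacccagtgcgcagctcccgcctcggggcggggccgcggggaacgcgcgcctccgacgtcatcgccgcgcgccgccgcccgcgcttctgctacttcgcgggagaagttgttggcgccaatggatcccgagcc

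The Mcm6 window holds 3 matches, those of Mcm3 and Rfc3 hold 2, those of Cdc6 and Pola1 hold 1, and that of Rfc1 holds 0 of these letters. The 15 genes with a match had a median control 1 minus control 2 of 0.59 (range -0.41 to 0.77), against 0.43 (range -0.22 to 0.86) for the 20 genes with a window and no match. For plumbagin minus control the medians were -0.14 and -0.14. These are descriptions of the letters in the windows, not of binding.

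The replicative helicase genes were all lower on average with plumbagin, 11 of 11, with a median of -0.13 and a range from -0.33 to -0.01. Mcm5, a subunit of the Mcm2-7 ring, had log2 values of 7.26 and 7.06 on the plumbagin arrays, against 7.86 and 7.12 on the control arrays. Control 1 stood above the other 3 arrays, and the groups overlapped; the difference was -0.33 ± 0.27 (SE, n = 2 per group). Mcm2 had 9.90 and 9.71 with plumbagin and 10.27 and 9.91 in the controls. It was the ring subunit whose plumbagin arrays both lay below both controls, by a margin of less than 0.01 between plumbagin 1 and control 2, and it differed by -0.29 ± 0.16. A second Mcm2 probe set gave -0.26 ± 0.15.

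Mcm3 had 8.15 and 7.73 with plumbagin and 8.60 and 7.83 in the controls, and Mcm7 had 9.20 and 8.54 with plumbagin and 9.40 and 8.76 in the controls. In both genes the 2 arrays numbered 1 lay above the 2 numbered 2, and the differences were -0.28 ± 0.31 and -0.21 ± 0.32. Mcm6 had 10.42 and 9.98 with plumbagin and 10.63 and 10.04 in the controls (-0.13 ± 0.26). Mcm4 was the ring gene with the smallest treatment difference, -0.01 ± 0.27, with 9.15 and 8.59 with plumbagin and 9.13 and 8.63 in the controls. Its sign turned to 0.02 with quantile normalization repeated and 0.05 with cyclic loess.

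The partners of the ring, Cdc45 and GINS, were lower on average too. Over the 4 GINS genes, control 1 exceeded control 2 by a median of 0.27, against 0.61 over Mcm2 to Mcm7. Gins4 had 8.11 and 8.07 with plumbagin and 8.42 and 8.12 in the controls, a difference of -0.18 ± 0.13. Both plumbagin arrays lay below both controls, but plumbagin 1 (8.112) was only just below control 2 (8.119). Gins1, Gins2 and Gins3 differed by -0.11, -0.03 and -0.05, of which Gins2 and Gins3 were above 0 with cyclic loess (0.02 and 0.0028). Cdc45 differed by -0.09 ± 0.14.

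Of the 7 genes grouped as origin licensing, among which Mcm10 was counted, 5 were lower and 2 higher, with a median of -0.15. Cdt1, which loads the Mcm2-7 ring, had 10.14 and 10.15 with plumbagin and 10.28 and 10.29 in the controls. It was the member with the closest replicates, the groups did not overlap, and it differed by -0.14 ± 0.08 with a 95% interval from -0.35 to 0.06. Its difference stayed between -0.15 and -0.14 with any 1 array left out, and a second probe set above background gave -0.24 ± 0.09, with 9.09 and 9.20 under plumbagin and 9.44 and 9.33 in the controls. The adjusted p was 1 for both probe sets (limma).

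Cdc6, the ATPase that acts with Cdt1, had 6.97 and 6.23 with plumbagin and 7.26 and 6.49 in the controls. It was lower within both numbers, by -0.29 and -0.26, while the controls differed from each other by 0.77, and the fitted difference was -0.28 ± 0.37. Gmnn, the inhibitor of Cdt1, had 7.86 and 7.37 with plumbagin and 7.82 and 7.37 in the controls, a difference of 0.02 ± 0.24 that again followed the number and not the treatment. Mcm10, needed to activate the loaded helicase and so acting after loading, differed by -0.15 ± 0.22 and was itself the median of the group.

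Among the origin recognition complex genes, Orc2 had 8.22 and 8.43 with plumbagin and 8.56 and 8.49 in the controls, with no overlap and a difference of -0.20 ± 0.11. The other 2 Orc2 probe sets above background gave -0.03 and -0.24, and both had control 1 below control 2, opposite to the brightest. Orc6 differed by -0.17 ± 0.12. Orc1 lay near background, with 5.19 and 5.14 with plumbagin and 5.24 and 5.01 in the controls; its difference of 0.04 ± 0.11 was -0.04 with its probe sets averaged.

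The clamp loader genes held the largest difference in each direction relative to its error among the 43, Rfc4 below and Rfc1 above 0. Rfc4, a small subunit of replication factor C, had 8.66 and 8.70 with plumbagin and 9.21 and 8.89 in the controls. The groups did not overlap, and the difference was -0.37 ± 0.13 with a 95% interval from -0.73 to -0.01 (unadjusted p = 0.0464, limma adjusted p = 1); it lay between -0.53 and -0.21 with any 1 array left out, and a second probe set gave -0.18 ± 0.12. Rfc3, another small subunit, had 7.65 and 7.59 with plumbagin and 8.17 and 7.72 in the controls, also without overlap, and differed by -0.33 ± 0.17, with -0.36 ± 0.14 for a second probe set. Rfc5 and Rfc2 differed by -0.20 ± 0.20 and -0.12 ± 0.20.

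Rfc1, the large subunit of the same complex, went the other way. It had 7.97 and 7.66 with plumbagin and 7.40 and 7.62 in the controls, and both plumbagin arrays lay above both controls, plumbagin 2 by 0.04 over control 2. The difference was 0.31 ± 0.15, made up of 0.57 in number 1 and 0.04 in number 2. Its second probe set, with 7.48 and 7.43 under plumbagin and 7.39 and 7.24 in the controls, gave 0.14 ± 0.09 and had control 1 above control 2. Pcna, the clamp itself, had 11.08 and 10.77 with plumbagin and 11.16 and 10.77 in the controls, so that plumbagin 2 and control 2 were alike within 0.01 and the difference was -0.04 ± 0.19.

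Of the 9 polymerase and primase genes, 7 were lower and 2 higher, with a median of -0.15 and 0 with plumbagin arrays apart from both controls. Pola2, the regulatory subunit of polymerase alpha, had 6.08 and 5.49 with plumbagin and 6.47 and 5.89 in the controls. It was lower by 0.39 in number 1 and by 0.40 in number 2, the widest number 2 gap of the 43 genes, yet the controls differed by 0.58 and the fitted difference was -0.40 ± 0.29. Pold2, an accessory subunit of polymerase delta, had 8.25 and 8.04 with plumbagin and 8.82 and 8.21 in the controls, and Pold1, its catalytic subunit, had 7.61 and 7.25 with plumbagin and 7.99 and 7.48 in the controls. Control 1 was the highest array in both, and they differed by -0.37 ± 0.23 and -0.30 ± 0.22.

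Pola1, the catalytic subunit of polymerase alpha, was the largest exception. It had 8.18 and 7.74 with plumbagin and 7.41 and 7.82 in the controls, with control 1 the lowest array. It was higher by 0.77 in number 1 but lower by 0.07 in number 2, a fitted difference of 0.35 ± 0.22 that rests on 1 probe set and was 0.13 without plumbagin 1 and 0.15 without control 1. Pole, the catalytic subunit of polymerase epsilon, had 7.20 and 7.06 with plumbagin and 7.56 and 7.16 in the controls (-0.23 ± 0.16). Its partner Pole2 had 7.49 and 6.58 with plumbagin and 7.43 and 6.69 in the controls, the widest gap between the plumbagin arrays of the 43 genes at 0.91, and a difference of -0.02 ± 0.40. Prim1 and Prim2, the primase subunits, differed by -0.15 ± 0.21 and -0.12 ± 0.18, and Pold3 by 0.01 ± 0.09, which was -0.09 with its probe sets averaged. A second Prim1 probe set gave 0.06 ± 0.30, and the other probe sets of Prim2 gave -0.08 ± 0.15 and 0.05 ± 0.08.

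The single-strand binding genes Rpa1, Rpa2 and Rpa3 differed by 0.01 ± 0.19, -0.12 ± 0.17 and -0.05 ± 0.08. Second probe sets gave -0.0032 ± 0.27 for Rpa1 and -0.35 ± 0.17 for Rpa2. Rpa1 had 10.62 and 10.35 with plumbagin and 10.70 and 10.25 in the controls, and its sign was -0.01 with arrays centred on their medians. The flap endonuclease gene Fen1 had 7.70 and 7.46 with plumbagin and 8.12 and 7.48 in the controls, and the ligase gene Lig1 had 8.96 and 8.32 with plumbagin and 9.19 and 8.49 in the controls. In both genes the arrays numbered 1 lay above those numbered 2, in the common order; the differences were -0.22 ± 0.24 and -0.20 ± 0.33.

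The nucleotide supply genes showed small treatment differences beside wide gaps between arrays of 1 treatment. By the brightest probe sets all 4 were lower on average, by 0.03 to 0.13, with 2 of 4 lower in number 2. Tyms, thymidylate synthase, had 8.43 and 7.54 with plumbagin and 8.51 and 7.72 in the controls, and Tk1, thymidine kinase 1, had 8.83 and 8.15 with plumbagin and 8.95 and 8.09 in the controls. In both genes each array numbered 1 lay above each numbered 2 by at least 0.68, and the differences were -0.13 ± 0.41 and -0.03 ± 0.38; Tk1 was above 0 with quantile normalization repeated (0.01) and with cyclic loess (0.03). Rrm1 and Rrm2 encode the subunits of ribonucleotide reductase. Rrm1 had 10.01 and 9.65 with plumbagin and 10.29 and 9.63 in the controls, a difference of -0.13 ± 0.27. Rrm2 had 10.30 and 9.80 with plumbagin and 10.34 and 9.90 in the controls, a difference of -0.07 ± 0.24. A second probe set gave -0.06 ± 0.26 for Rrm1 and -0.25 ± 0.29 for Rrm2, so the size for Rrm2 depended on the probe set. Uhrf1, which brings maintenance methylation to newly copied DNA, had 9.48 and 8.90 with plumbagin and 9.67 and 8.90 in the controls, the same pattern, and differed by -0.10 ± 0.34. Its second probe set gave -0.36 ± 0.29, with -0.50 in number 1 and -0.23 in number 2.

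Over the 43 genes the 95% intervals of the treatment difference reached from -1.28 (Cdc6) to 1.06 (Pole2). Differences well beyond those measured here were thus within the error of 2 arrays per group.

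Within the numbers, each comparison was of 1 array with 1 array and had no replicate check. In number 1, plumbagin 1 against control 1, the median over the 43 genes was -0.18, with 37 lower and 6 higher where 55.5% of all genes and 69.1% of those above background were lower, and 16 were lower by at least 0.25 (37.2%), where 15.2% of all genes and 26.9% of those above background were. Rfc1 and Pola1 were higher by at least 0.25, where 7.8% of all genes were. That comparison was low as a whole, with a median of -0.11 over all genes above background. In number 2, plumbagin 2 against control 2, the median was -0.07, again with 37 lower and 6 higher where 51.5% of all genes and 50.7% of those above background were lower, and 2 genes, Pola2 and Cdc6, were lower by at least 0.25 (4.65%), where 1.59% of all genes and 1.81% of those above background were. None of the 43 was higher by 0.25, where 1.71% of all genes were. The median over all genes above background was -0.0016 in the number 2 comparison. The number 1 median was -0.06 with cyclic loess and -0.10 with quantile normalization repeated, and that of number 2 was -0.08 and -0.07.

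Of the 43 genes 32 were lower within both numbers (74.4%), where 29.0% of all genes and 36.8% of those above background were, and 1, Rfc1, was higher in both. Those 32 included 10 of 11 helicase genes, 5 of 7 licensing genes, 5 of 6 clamp and clamp loader genes, 6 of 9 polymerase and primase genes and 2 of 4 nucleotide supply genes. The genes with opposite signs were Mcm4, Gmnn, Pola1, Pold3 and Pole2, higher in number 1, and Orc1, Rpa1, Rpa2, Rrm1 and Tk1, higher in number 2. Some signs depended on the probe set. Among other probe sets above background, those of Rpa2, Rrm1 and Pold3 were lower in both numbers. Those of Gins2, Gins3, Prim1 and Prim2 were not, and for Orc2 the brighter of its other probe sets was not.

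**Figure D2:**
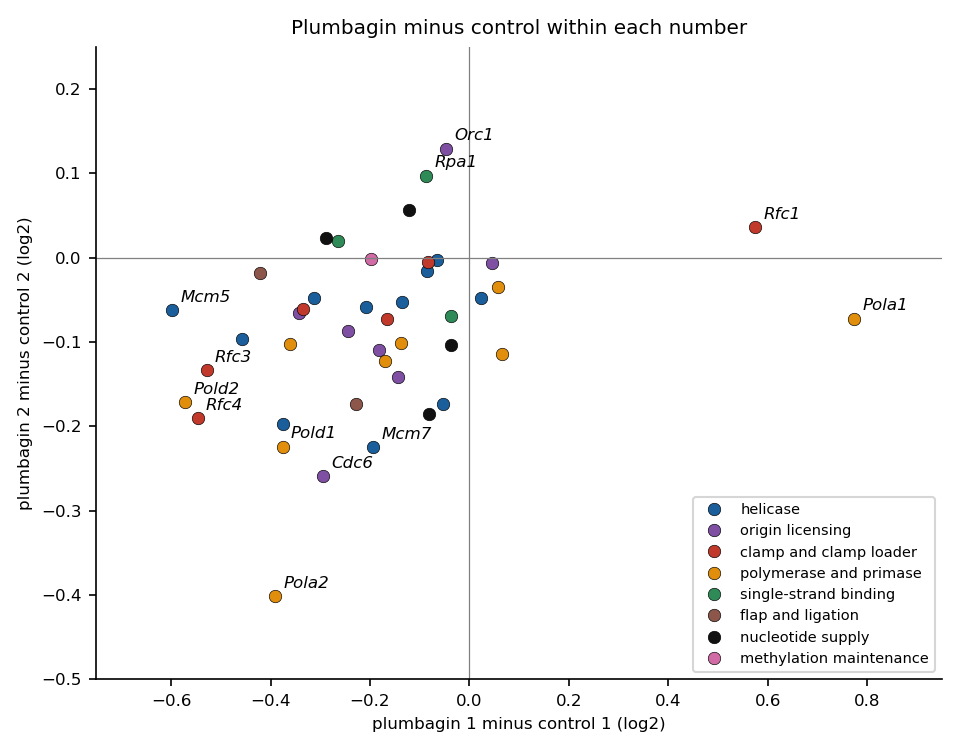
Plumbagin 1 minus control 1 (horizontal axis, log2) against plumbagin 2 minus control 2 (vertical axis, log2, drawn over a narrower range) for the 43 genes, coloured by role. Of them 32 lie below 0 on both axes, and Rfc1 (0.57) and Pola1 (0.77) lie far to the right.

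Between arrays of 1 treatment the differences were larger. Control 1 was above control 2 in 40 of the 43 genes, where 59.2% of all genes and 59.1% of those above background were. Plumbagin 1 was above plumbagin 2 in 40, where 54.2% of all genes and 41.2% of those above background were. Control 1 exceeded control 2 by at least 0.25 in 34 of the 43 genes (79.1%), where 12.8% of all genes and 21.2% of those above background did, and the reverse held for 1, Pola1, where 9.07% of all genes did. Plumbagin 1 exceeded plumbagin 2 by at least 0.25 in 25 of the 43 (58.1%), where 10.4% of all genes and 11.5% of those above background did, and the reverse held for 0, where 14.0% of all genes did. The widest control gaps were in Tk1 (0.86), Tyms (0.79), Cdc6 (0.77), Mcm3 (0.77), Uhrf1 (0.77) and Mcm5 (0.74), and the widest plumbagin gaps in Pole2 (0.91), Tyms (0.89), Cdc6 (0.74), Tk1 (0.68) and Mcm7 (0.67). These 2 gaps share no array. Across the 43 genes their Pearson correlation was 0.57 and their Spearman correlation 0.67, and across all genes above background 0.62 and 0.61, given as a description of genes read on the same 4 arrays. Without Rfc1 and Pola1, left out after their values were seen, the Pearson correlation across the other 41 genes was 0.76. The medians over the 43 genes ranged from 0.39 to 0.44 for the controls and from 0.24 to 0.41 for the plumbagin arrays over the other normalizations and the average of probe sets.

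**Figure D3:**
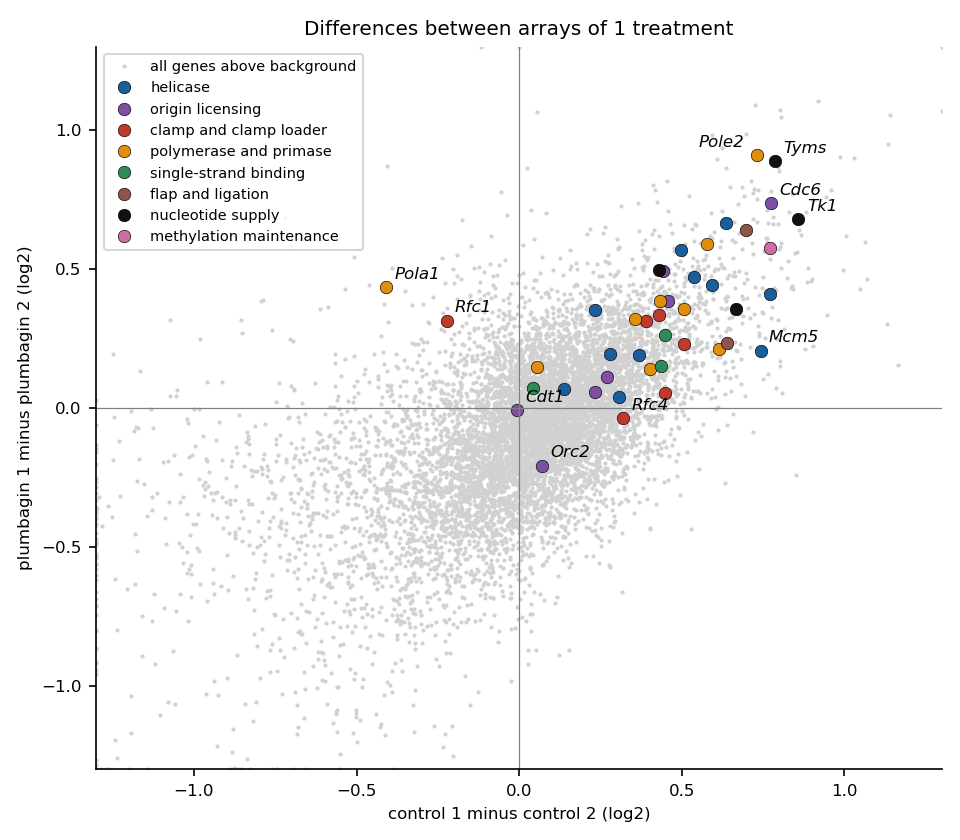
Control 1 minus control 2 (horizontal axis, log2) against plumbagin 1 minus plumbagin 2 (vertical axis, log2) for the 43 genes, coloured by role, over all genes above background in grey; grey points beyond 1.3 are drawn at the edge. The 43 genes lie mostly at the upper right, Rfc1 and Pola1 at the upper left, and Cdt1 at the centre.

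The roles were set side by side by the medians of their brightest probe sets, with no test between them. Between the controls the nucleotide supply genes had a median gap of 0.73, the helicase genes 0.50, the polymerase and primase genes 0.43, the clamp loader without Pcna 0.43 and the licensing genes 0.27. Between the plumbagin arrays the medians were 0.59, 0.35, 0.36, 0.23 and 0.11 in that order of roles. For plumbagin minus control the order was different, with -0.20 for the clamp loader, -0.15 for polymerase and primase, -0.15 for licensing, -0.13 for the helicase and -0.10 for nucleotide supply, and the ranges of the roles overlapped in all of them. In number 1 the clamp loader had -0.34, the helicase -0.19, licensing -0.18, polymerase and primase -0.17 and nucleotide supply -0.10. In number 2 polymerase and primase had -0.11, licensing -0.09, the clamp loader -0.07, the helicase -0.06 and nucleotide supply -0.04.

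**Figure D4:**
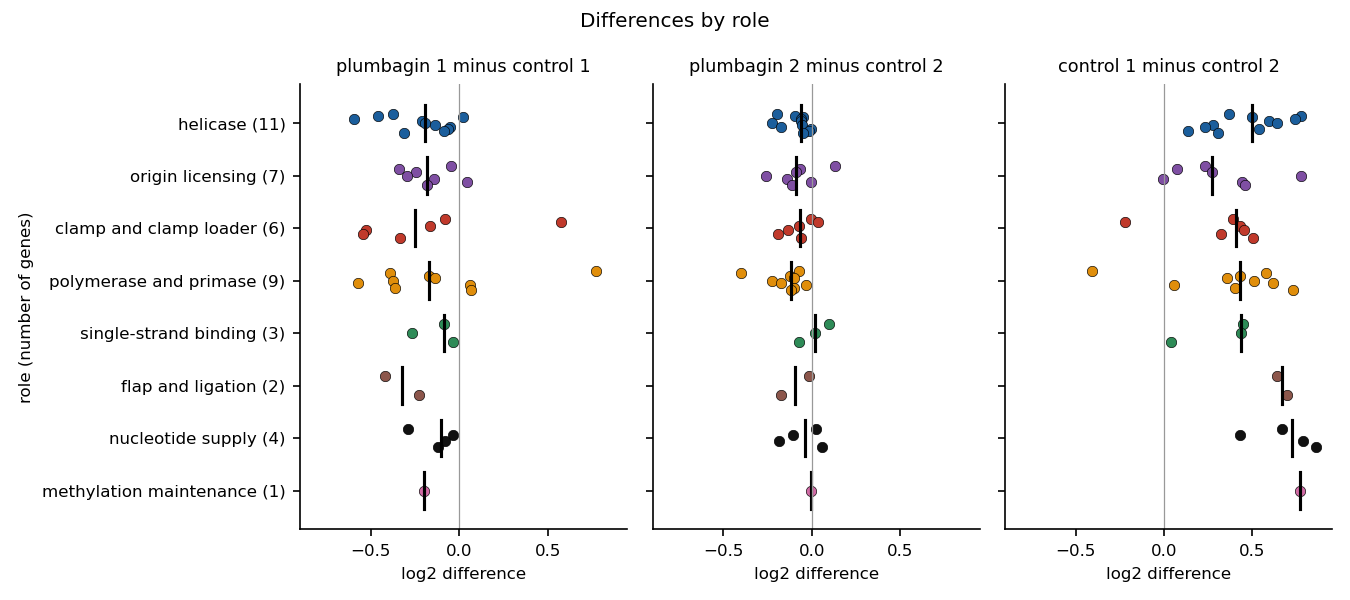
Log2 differences of the 43 genes by role for plumbagin 1 minus control 1, plumbagin 2 minus control 2 and control 1 minus control 2, with 1 point per gene and a vertical bar at the median of the role. The number 2 points gather near 0, while the control gaps reach 0.86 and are below 0 for Pola1, Rfc1 and, by under 0.01, Cdt1.

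The other probe sets of the list gave a check on the choice of the brightest. Of the 43 genes 25 had more than 1 probe set, and 22 of the 34 other probe sets were above background. Plumbagin minus control was below 0 in 19 of these 22 and had the sign of the brightest probe set in 17. Control 1 exceeded control 2 in 18 of the 22. Between the controls, 6 of the 22 had the sign opposite to the brightest probe set, in Cdt1, Gins3, Orc2, Prim2 and Rfc1. Of these, the probe sets of Cdt1 and Rfc1 had control 1 above control 2.

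Other genes of DNA replication, 50 listed by role from general knowledge, were measured in 41 cases. Of these 41, 26 were lower and 15 higher with plumbagin, with a median of -0.06, and 0 passed the test in either direction (limma adjusted p = 1 for each). The share that was lower, 63.4%, lay near the 65.1% of all genes above background. At an unadjusted p under 0.05, 1 was lower and 0 were higher, where 0.731% and 0.257% of all genes were. Control 1 exceeded control 2 in 31 of them (75.6%), where 59.1% of genes above background did, with a median of 0.23. The gap was at least 0.25 in 20 (48.8%), where 21.2% of genes above background had such a gap. The gene with the smallest p was Rnaseh2a, the catalytic subunit of ribonuclease H2, which removes RNA from DNA. It had 7.93 and 7.89 with plumbagin and 8.28 and 8.14 in the controls, without overlap, and differed by -0.30 ± 0.09 (unadjusted p = 0.0267). Ticrr and Recql4, which act in origin firing, and Mcmbp, a binding partner of Mcm proteins, differed by -0.25 ± 0.13, -0.27 ± 0.16 and -0.25 ± 0.16, and Recql4 had a mean below background.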

How the data were processed

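Biotinylated cRNA of B16F10 cells was hybridised to Affymetrix mouse arrays with 1 sample on each, per the labels' protocols. For every probe set the authors deposited 1 log2 value from each array. The submitters' processing notes name Affymetrix Expression Console, Transcriptome Analysis Console and RMA, and give no version. RMA makes array distributions more alike, so much of a shift of most genes is removed and weak signals are compressed. The deposited arrays were not fully alike, with an upper quartile of 6.26 for plumbagin 1 against 6.34 to 6.36 for the others. With 2 arrays in a group, their number sets the precision.

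Of 29449 probe sets in the platform annotation, which can be out of date, 28898 had 1 symbol, and 28689 symbols were looked up by Entrez number in a RefSeq table (GRCm38.p6). The brightest probe set stood for a gene. Differences were fitted with lmFit and eBayes of limma 3.58.1 (R 4.3.3), two-sided, without covariates, adjusted over 17097 genes at a threshold of 0.05. The fit was checked on simulated data whose shifts were far larger than any treatment difference of the 43 genes. Its power for differences of the size seen here was not checked. Differences between single arrays had no test, and a size of 0.25 was used to count them. The genes, the other replication genes and the markers were chosen with earlier results of these data known. Any of the 43 genes could be named, and the 4 other replication genes with the smallest p. Top1, Rrm2b, Hells, Atad5 and Dna2 were named outside this rule, for their gaps between arrays of 1 treatment, after their values were seen. Alternatives were the average or each of a gene's probe sets, 2 filters on dim genes, 3 normalizations, 2 variance models, the replicate number as a block and each array left out.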

Additional observations from a re-analysis of the deposited data

How the results depend on the processing

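The counts of genes past the adjusted threshold, 0 of the 43 and 0 of all genes, were the same in every alternative, with the smallest limma adjusted p of any gene 0.792, reached without plumbagin 2. The share of the 43 genes lower with plumbagin was 86.0%, ranged from 72.1% (cyclic loess) to 90.7% (arrays centred on their medians) with all arrays kept, and from 27.9% (without control 1) to 95.3% (without control 2) with 1 left out, with 41.9% without plumbagin 2. The median was -0.13 and ranged from -0.36 to 0.10 with 1 array left out, and from -0.15 to -0.08 otherwise. The medians within the numbers and within the treatments kept their signs in the alternatives run for them. With the replicate number as a block, the median was -0.13, the count past the threshold 0 of 43 and the smallest adjusted p 0.919. Samples of the same number deviated together over all genes (correlation 0.54), but with 2 pairs and no label that explains the numbers, this is a hint from the data and not a known pairing. Signs turned with all arrays kept in 9 genes: with quantile normalization repeated Mcm4 (0.023), Gins2 (0.015), Pole2 (0.034) and Tk1 (0.0084), with cyclic loess Mcm4 (0.045), Gins2 (0.023), Gins3 (0.0028), Pole2 (0.042), Rpa3 (0.0050) and Tk1 (0.029), with arrays centred Pold3 (-0.0071) and Rpa1 (-0.013), and with probe sets averaged Orc1 (-0.043), Pold3 (-0.091) and Pole2 (0.0047). The cause was not tested. With 1 array left out, the signs of 29 genes turned at least once, with these ranges of the difference: Mcm3 -0.66 to 0.11, Mcm4 -0.30 to 0.27, Mcm5 -0.70 to 0.041, Mcm6 -0.43 to 0.16, Mcm7 -0.54 to 0.12, Cdc45 -0.23 to 0.045, Gins1 -0.29 to 0.064, Gins2 -0.30 to 0.23, Gins3 -0.12 to 0.019, Orc1 -0.075 to 0.16, Cdc6 -0.66 to 0.11, Gmnn -0.23 to 0.27, Mcm10 -0.37 to 0.083, Pcna -0.24 to 0.15, Rfc2 -0.33 to 0.095, Rfc5 -0.45 to 0.055, Prim1 -0.36 to 0.070, Prim2 -0.30 to 0.059, Pold3 -0.062 to 0.085, Pole2 -0.48 to 0.43, Rpa1 -0.22 to 0.23, Rpa2 -0.34 to 0.095, Fen1 -0.54 to 0.10, Lig1 -0.55 to 0.15, Rrm1 -0.47 to 0.20, Rrm2 -0.32 to 0.18, Tyms -0.58 to 0.31, Tk1 -0.46 to 0.40 and Uhrf1 -0.49 to 0.29. In 13 genes the sign held in every alternative run, but with 1 array left out the size did not: Mcm2 -0.47 to -0.10, Gins4 -0.33 to -0.027, Orc2 -0.31 to -0.10, Orc6 -0.30 to -0.032, Rfc1 0.15 to 0.46, Rfc3 -0.56 to -0.11, Rfc4 -0.53 to -0.21, Pola1 0.13 to 0.57, Pola2 -0.69 to -0.10, Pold1 -0.55 to -0.046, Pold2 -0.68 to -0.064 and Pole -0.43 to -0.031, with Cdt1 (-0.15 to -0.14) the exception. A group left with 1 array was given the spread of the group with 2.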

Other observations

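Like Rfc1 and Pola1, some genes of the other replication list had control 1 as their lowest array, opposite to the common order, and the 4 with the widest gaps between the controls, chosen after their values were seen, were Rrm2b, Top1, Atad5 and Hells. Top1, the topoisomerase that relaxes DNA ahead of the fork, had log2 values of 9.15 and 9.42 with plumbagin and 8.73 and 9.50 in the controls. Rrm2b, the p53-inducible ribonucleotide reductase subunit, had 7.29 and 7.51 with plumbagin and 6.73 and 7.53 in the controls. Hells, a chromatin remodeller of the SNF2 family, had 8.56 and 8.36 with plumbagin and 7.98 and 8.55 in the controls, and Atad5, which unloads PCNA, had 6.62 and 6.60 with plumbagin and 6.10 and 6.77 in the controls. Their plumbagin minus control differences were 0.17 to 0.27, each with a limma adjusted p of 1. A choice by a low control 1 also lowers the control mean, so the sign of these differences is no separate result. In number 2 all of them were lower with plumbagin, Rrm2b by -0.02, Top1 by -0.08, Atad5 by -0.17 and Hells by -0.18.

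Dna2, a nuclease and helicase of Okazaki fragment processing, had the widest gap between plumbagin arrays of the other replication genes, 1.09, with 6.49 and 5.39 with plumbagin and 6.44 and 5.71 in the controls. Among the 7 melanocyte markers, Tyr, Tyrp1, Dct, Pmel, Mitf and Sox10 were higher on both arrays numbered 2 than on both numbered 1. Only Mlana went the other way. Control 1 minus control 2 ranged from -0.48 (Mitf) to -0.04 (Tyrp1) in the former and was 0.60 in Mlana. Mitf, a lineage factor gene, was higher on the arrays numbered 2, with 10.64 and 11.32 with plumbagin and 10.70 and 11.18 in the controls. Mlana, a melanosome protein gene, was higher on the arrays numbered 1, as most replication genes were, with 11.57 and 11.15 with plumbagin and 11.69 and 11.09 in the controls.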
